A study of Mus musculus with 6 samples.

Results

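The interferon and innate sensing genes described here are 41 mouse genes, picked by symbol out of the 43346 Ensembl genes measured in cultured retinal ganglion cells (RGCs), and all 41 are listed in the table of each library. They fall by role into 4 interferon receptor chains, 6 transcription factors, 7 nucleic acid sensors and adaptors, 13 interferon-induced effectors, 3 genes of the *Parp9*, *Parp14* and *Dtx3l* group, 7 genes of antigen presentation and the chemokine *Cxcl10*. RGCs are the neurons whose axons form the optic nerve. They were purified from mice by immunopanning for CD90.1 (the product of *Thy1*) and kept in medium with forskolin, BDNF and CNTF. Every culture received an adeno-associated virus (AAV2, with tyrosines of the capsid mutated), so what the groups share is exposure to viral particles and a transgene. The control AAV encoded EGFP alone, the Sox11 AAV encoded the transcription factor Sox11 with EGFP behind an IRES, and the Sox11 K91A AAV encoded Sox11 with the lysine at residue 91 replaced by alanine, a change that prevents SUMOylation there, again with EGFP. Each group had 2 replicates, and no culture without AAV was analysed here, so a response shared by the 3 viruses cannot be told apart from the level of untreated RGCs. The promoter that drives the transgene is not given in the sources used here. The virus was added 4 h after plating, as 1.5 μl to each well of 250000 cells (100000 vector genomes per cell), and RNA was taken at 72 h. The stated age differs, with embryonic day 18 for the RNA-seq cultures and postnatal day 2 in the general culture protocol. The labels say that libraries were made from 3 RNA samples in duplicate. The p-values below therefore rest on the spread between the 2 libraries of each group. In the main fit this spread is pooled over the 3 groups and drawn toward that of other genes. Whether the 2 come from separate cultures is not stated in the sources used here.

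Cells sense foreign nucleic acid through receptors in endosomes, such as Tlr3 and Tlr9, and in the cytoplasm, such as the RNA helicases encoded by *Ddx58* (RIG-I) and *Ifih1* (MDA5), which signal through adaptors to Irf3 and Irf7 and so to type I interferon. Secreted interferon binds a receptor of Ifnar1 and Ifnar2, and the Janus kinases at that receptor activate STAT proteins such as Stat2, which with Irf9 bind the interferon-stimulated response element (ISRE) of many genes. Neurons are known for a restrained form of this response and for low surface MHC class I.

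Libraries held between 27521982 and 37061718 expected counts. Of all genes, 15747 had enough counts to be tested with limma-voom, and genes were called upregulated or downregulated at an adjusted p under 0.05 and a fold change above 1.2. *Sox11* itself had 6544 and 12786 counts in the control libraries, 252161 and 483694 with Sox11, and 385765 and 204868 with Sox11 K91A, in the direction of the labels. The second principal component (18.2% of the variance) set control 2 and Sox11 2 off from the remaining 4 libraries. These 2 libraries also had less *Xist* (3697 and 8413 counts, against 11191 to 16303 elsewhere). They had more of the Y-linked gene *Ddx3y* (1157 and 991 counts, against 446 to 522 elsewhere). Whether the mix of male and female cells differed was not tested. Called genes are also given without these 2 libraries. That fit keeps 1 control and 1 Sox11 library, so its spread comes from the 2 Sox11 K91A libraries alone, the pair with the smallest median difference between replicates (0.156 on the log2 scale, against 0.340 in control and 0.258 with Sox11), and each lone library is assumed to vary like them.

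Expression of the 41 genes ranged from well expressed receptor chains and class I genes to sensors and effectors that were nearly absent. In CPM (counts relative to the scaled library total), 12 genes had a mean of at least 10 over the 6 libraries, 10 lay between 1 and 10, and 19 lay under 1. Counts sufficed for a test in 31 of the 41, and the 10 genes not tested were *Ifih1*, *Tmem173*, *Tlr3*, *Isg15*, *Ifit1*, *Ifit3*, *Oas1a*, *Rsad2*, *Parp14* and *Cxcl10*. Summed, these 10 genes held 161 counts in all 6 libraries together, and their summed level ran from 0.644 to 1.19 CPM in control, 0.694 to 0.910 CPM with Sox11 and 0.745 to 0.857 CPM with Sox11 K91A. Ranked per length, in TPM (transcript abundance corrected for gene length), the highest means belonged to *B2m* (216 TPM), *H2-D1* (202 TPM) and *Ifngr2* (95.5 TPM), and *Isg15* had a mean of 0.820 TPM.

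**Figure D1:**
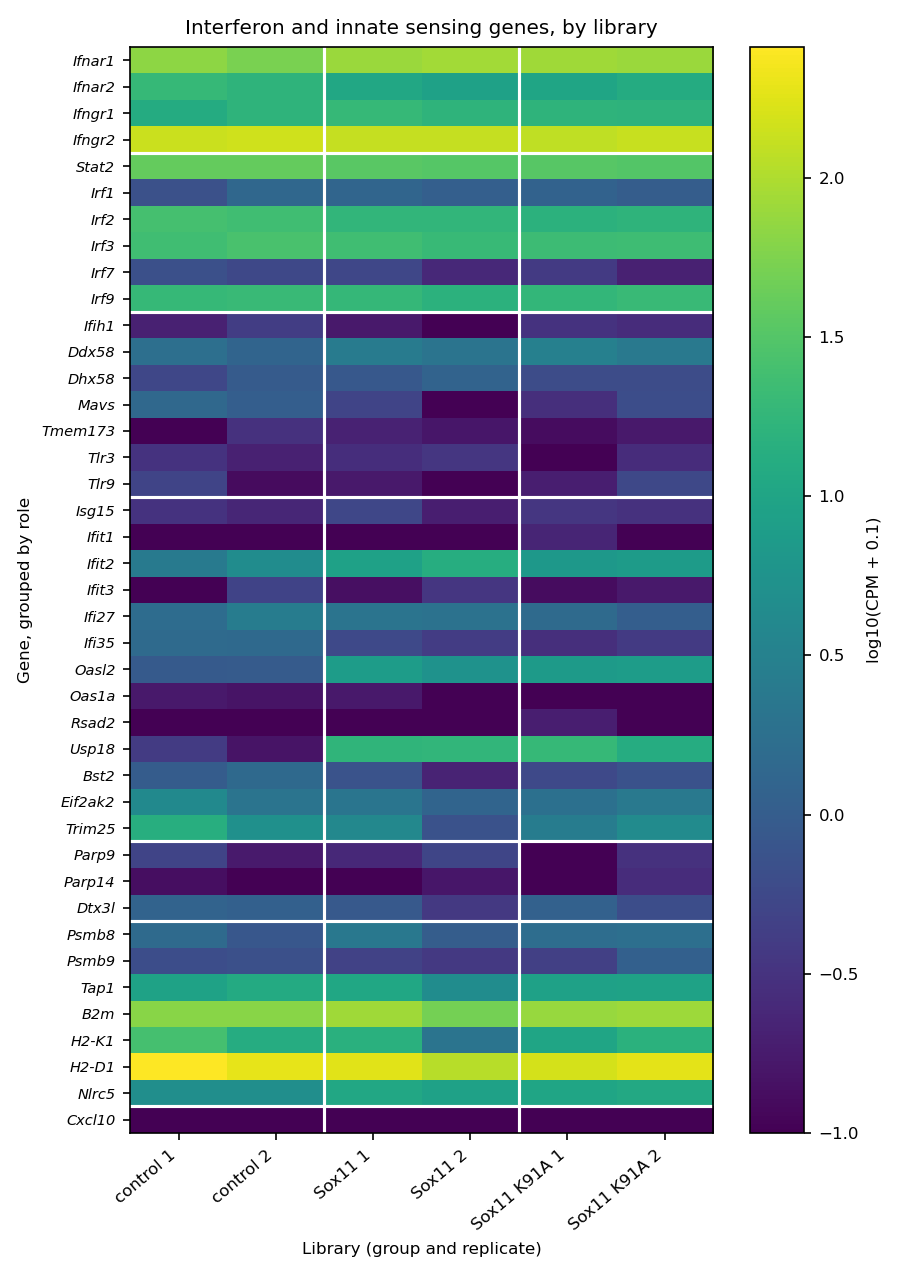
Heat map of the 41 genes (rows, grouped by role and separated by white lines) in the 6 libraries (columns), as log10(CPM + 0.1). The receptor chains, *Stat2*, *Irf2*, *Irf3*, *Irf9*, *B2m* and *H2-D1* are bright in every column, *Ifit1*, *Rsad2* and *Cxcl10* are dark in nearly every column, and *Usp18* and *Oasl2* are brighter in the 4 Sox11 and Sox11 K91A columns than in the control columns.

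With Sox11, 4 of the 31 tested genes were upregulated (12.9%), beside 9.96% of all genes tested, and 2 were downregulated (6.45%), beside 10.2% of all genes, or 20.1% of all genes in either direction. With Sox11 K91A, 3 were upregulated (9.68%, beside 5.81% of all genes) and 1 was downregulated (3.23%, beside 4.81%, with 10.6% of all genes in either direction). These shares lie near those of all genes, each gene being worth about 3.23 percentage points here. The median log2 fold change over the 31 genes was -0.23 with Sox11 and -0.25 with Sox11 K91A, beside 0.01 and 0.02 over all genes tested. Among all genes, 1568 were upregulated and 1603 downregulated with Sox11, and on log2(TPM + 0.1) values the split was 1287 and 820. With Sox11 K91A the counts were 915 and 757. Both comparisons use the same control libraries, so their values are given side by side. Each count depended on the libraries kept in the fit. Without replicate 2 of Sox11, limma-voom called 0 genes of any kind with Sox11 (3347 genes had an unadjusted p under 0.05). Without replicate 2 of control it called 0 with Sox11 K91A (4753 had an unadjusted p under 0.05), and without replicate 1 of Sox11 K91A it called 19, none of them an interferon gene. In the fit without control 2 and Sox11 2, the median log2 fold change of the interferon genes was -0.10 with Sox11 and -0.13 with Sox11 K91A. Over all genes tested there it was 0.01 in both comparisons. The spread of that fit comes from the Sox11 K91A pair alone.

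**Figure D2:**
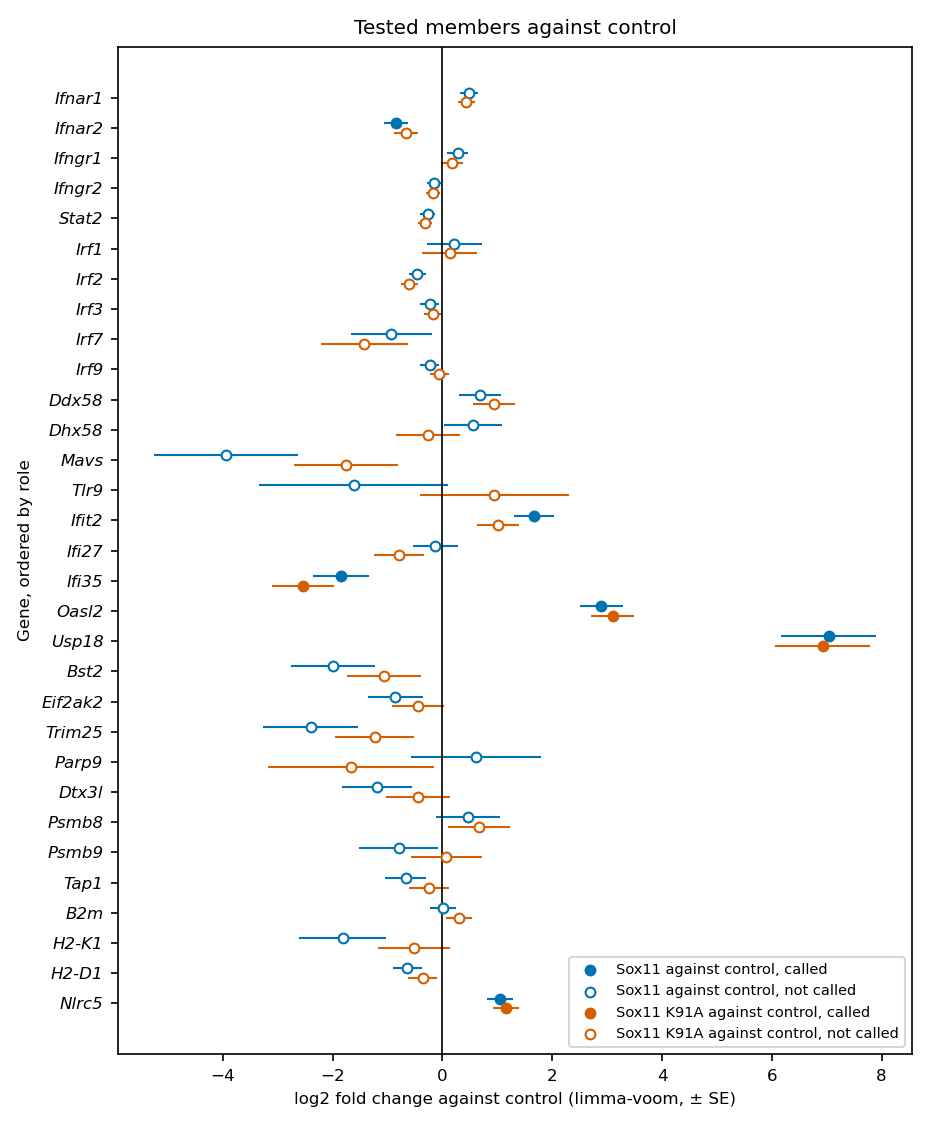
log2 fold change against control (x axis, limma-voom, bars are ± SE) of the 31 tested genes (y axis, ordered by role) for Sox11 in blue and Sox11 K91A in orange, with filled points for called genes. *Usp18* lies near 7 in both comparisons, *Oasl2* near 3, and most open points lie within 2 of 0.

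The 4 receptor chains were among the better expressed genes, and of these *Ifnar2* was lower with Sox11. *Ifnar2* encodes the chain of the type I interferon receptor that binds interferon most tightly. It held 19.0 and 16.5 CPM in the control libraries, 11.1 and 8.75 CPM with Sox11, and 9.93 and 12.6 CPM with Sox11 K91A. Both Sox11 groups lay below both controls. The log2 fold change with Sox11 was -0.85 ± 0.22 (SE), with an adjusted p of 0.0391 by limma-voom. With Sox11 K91A it was -0.66 ± 0.21 (adjusted p = 0.0901 by limma-voom), which did not pass. The Sox11 call was lost when any one of the 6 libraries was left out, with values between -1.02 and -0.66, and also with the replicate number as a block (adjusted p up to 0.093 over the alternatives). Without control 2 and Sox11 2 the values were -0.77 with Sox11, not called, and -0.77 with Sox11 K91A, called. A neighbouring gene on the same strand, *Gm21970*, shares 9.46% of its exon bases.

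*Ifnar1*, the partner chain, moved the other way without passing the test. Its libraries held 67.4 and 52.8 CPM in control, 79.4 and 87.6 CPM with Sox11, and 83.0 and 78.6 CPM with Sox11 K91A, which did not overlap with control. The log2 fold changes were 0.49 ± 0.16 and 0.44 ± 0.16, with adjusted p-values of 0.0727 and 0.122 by limma-voom. Without replicate 1 of control, *Ifnar1* was called in both comparisons, at 0.66 and 0.62. The chains of the type II receptor stayed uncalled. *Ifngr2* ranged from 121 to 146 CPM and *Ifngr1*, which binds interferon gamma, from 12.5 to 19.0 CPM over the 6 libraries. The Sox11 libraries of *Ifngr2* did not overlap with control either, though its adjusted p was 0.444 by limma-voom. With 2 libraries a group, such separation, here and below, is a description and not a test. Its share over all genes is not given here. Summed over the 4 chains, the level was 231 to 238 CPM in control, 238 to 241 CPM with Sox11 and 231 to 239 CPM with Sox11 K91A.

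None of the 6 transcription factors was called in the main limma-voom fit (all 6 libraries, no block). DESeq2 called *Irf2* lower in both comparisons with control. With a block for control 2 and Sox11 2, limma-voom called *Irf2* lower with Sox11 K91A. It did the same with at least 10 counts required in every library. *Stat2*, a signal carrier that binds DNA together with Irf9, held 40.5 and 40.5 CPM in control, 34.8 and 32.7 CPM with Sox11, and 33.2 and 31.8 CPM with Sox11 K91A. *Irf2*, which competes with Irf1 for the same DNA element and mostly represses it, held 25.1 and 23.4, then 17.6 and 17.5, then 15.4 and 16.5 CPM. For both genes every Sox11 and Sox11 K91A library lay below every control. The log2 fold changes of *Irf2* were -0.46 ± 0.15 with Sox11 (adjusted p = 0.0743 by limma-voom) and -0.60 ± 0.16 with Sox11 K91A (adjusted p = 0.0546), and those of *Stat2* were -0.27 ± 0.13 (adjusted p = 0.194) and -0.32 ± 0.13 (adjusted p = 0.164). DESeq2 gave adjusted p-values of 0.0416 and 0.00917 for *Irf2*. With control 2 and Sox11 2 left out, *Irf2* was at -0.51 with Sox11, which limma-voom did not call, and at -0.65 with Sox11 K91A, which it called. *Irf3*, the factor that sensors activate directly, ranged from 19.6 to 27 CPM, and *Irf9*, the DNA-binding partner of Stat2, from 15.6 to 20.4 CPM. The other 2 factors were low. *Irf1* ranged from 0.608 to 1.27 CPM, and *Irf7*, which amplifies type I interferon production, from 0.103 to 0.573 CPM.

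The sensors and adaptors were low, with *Ddx58* and *Mavs* the 2 whose control mean exceeded 1 CPM, and none was called with all libraries. *Ddx58* held 1.65 and 1.17 CPM in control, 2.51 and 1.93 CPM with Sox11, and 2.92 and 2.33 CPM with Sox11 K91A. Its log2 fold changes of 0.68 ± 0.39 and 0.94 ± 0.38 did not pass (adjusted p = 0.242 and 0.146 by limma-voom). *Mavs*, the mitochondrial adaptor through which RIG-I and MDA5 signal, held 37 and 37 counts in control, 11 and 0 with Sox11, and 6 and 16 with Sox11 K91A. It did not pass with Sox11 (adjusted p = 0.0732 by limma-voom), but it was called when replicate 1 of Sox11 was left out, so that the library with 0 counts alone stood for the group. *Dhx58* (LGP2, a regulator of the RNA helicases) ranged from 0.429 to 1.12 CPM and *Tlr9*, the sensor of unmethylated CpG DNA, from 0 to 0.446 CPM. *Ifih1*, *Tlr3*, the sensor of double-stranded RNA in endosomes, and *Tmem173* (STING, the adaptor of cytoplasmic DNA sensing) had at most 12, 8 and 8 counts in a library.

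Of the 13 effectors, which include the classical interferon-stimulated genes (ISGs), 5 were not tested for lack of counts. *Ifit1*, whose protein binds viral RNA lacking host cap methylation, had 4 counts in replicate 1 of Sox11 K91A and 0 in the other 5 libraries. *Rsad2* (viperin) had 3 counts in that same library and 0 elsewhere. *Isg15*, a ubiquitin-like modifier, had between 3 and 12 counts. *Ifit3* had between 0 and 15 counts, and *Oas1a*, one of the enzymes that make the RNase L activator, between 0 and 2. *Ifit3* and *Oas1a* share 97.4% and 100% of their longest transcript with *Ifit3b* and *Oas1g*, so their counts are uncertain, and other genes cover 72.1% of that of *Isg15*. The chemokine *Cxcl10*, a sensitive reporter of interferon, had 0 counts in all 6 libraries, which allows up to 3 counts or 0.0809 to 0.109 CPM per library, for counting error only.

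Type I interferon acts on many of its target genes through the ISRE. The 150 bases before the RefSeq start (GRCm38.p6, the first start of *Ifit2*) are printed for 3 nearly absent effectors and 2 that rose. These are examples described by their level, so whether a match goes with a change is not read from them. *Usp18* and *Nlrc5*, which also rose, have no window. *B2m*, *Stat2*, *Irf2* and *Eif2ak2* were expressed and hold a match in the longer windows below, but are not printed. The bases are read 5′ to 3′ along the gene, with matches to the ISRE letters (GAAA, any 2 bases, GAAA) on either strand in capitals.
Isg15, chr4:156200819-156200968, minus strand: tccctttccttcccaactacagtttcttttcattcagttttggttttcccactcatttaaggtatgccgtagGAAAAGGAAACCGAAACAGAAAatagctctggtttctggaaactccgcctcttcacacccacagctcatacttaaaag
Ifit1, chr19:34640739-34640888, plus strand: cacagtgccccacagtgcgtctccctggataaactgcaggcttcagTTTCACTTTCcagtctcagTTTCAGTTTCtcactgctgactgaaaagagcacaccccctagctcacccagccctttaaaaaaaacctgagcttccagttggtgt
Rsad2, chr12:26456453-26456602, minus strand: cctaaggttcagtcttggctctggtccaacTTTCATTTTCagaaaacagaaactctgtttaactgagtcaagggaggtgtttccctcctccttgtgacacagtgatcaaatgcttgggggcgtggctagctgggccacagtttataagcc
Oasl2, chr5:114896784-114896933, plus strand: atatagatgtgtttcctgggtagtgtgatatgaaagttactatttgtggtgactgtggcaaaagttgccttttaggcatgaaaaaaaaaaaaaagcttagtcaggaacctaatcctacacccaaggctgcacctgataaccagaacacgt
Ifit2, chr19:34550544-34550693, plus strand: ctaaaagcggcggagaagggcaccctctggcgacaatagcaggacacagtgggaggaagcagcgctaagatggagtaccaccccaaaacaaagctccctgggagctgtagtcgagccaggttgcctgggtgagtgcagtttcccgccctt

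*Isg15* showed overlapping matches over 22 bases, *Ifit1* 2 separate matches on the other strand and *Rsad2* 1, while *Oasl2* and *Ifit2* showed none in these windows. Over the RefSeq windows from 250 bases before to 50 after a start, 13 of the 34 members with a window held the ISRE letters. By window this was 34.2% of 38, against 3.44% of all 32851 promoter windows of the genome. The 13 genes were *Stat2*, *Irf2*, *Ifih1*, *Ddx58*, *Isg15*, *Ifit1*, *Ifit3*, *Oas1a*, *Rsad2*, *Bst2*, *Eif2ak2*, *B2m* and *Cxcl10*. Of these 13, 7 had too few counts to test, and of the 6 tested the main limma-voom fit called 0 and DESeq2 called *Irf2*. Of the 21 with a window and no match, 20 were tested and the main fit called 4. Among all genes, 20.1% were called with Sox11 and 10.6% with Sox11 K91A, so no difference between these classes is read from the counts. Those without a window were *Dhx58*, *Ifi27*, *Nlrc5*, *Parp9*, *Parp14*, *Tmem173* and *Usp18*. The gamma-activated site TTCNNNGAA was in 26.3% of the members' windows and 8.30% of all windows, and the SOX letters AACAATG or AACAAAG, on either strand, in 10.5% and 9.36%.

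*Usp18* made the largest change among the 41 genes. It lies at chr6:121245906-121270917 on the plus strand (GRCm38) and encodes the protease that removes Isg15 from proteins and that also restrains signalling at Ifnar2. It had 8 and 2 counts in the control libraries, 461 and 579 with Sox11, and 621 and 379 with Sox11 K91A. In CPM these were 0.286 and 0.0519, then 16.8 and 17.5, then 19.3 and 13.0, so the lowest Sox11 or Sox11 K91A library exceeded the highest control by far. The group means were 0.169 ± 0.166 (SD, n = 2), 17.1 ± 0.486 and 16.1 ± 4.44 CPM. The log2 fold change was 7.04 ± 0.86 with Sox11 (adjusted p = 0.0113 by limma-voom) and 6.93 ± 0.86 with Sox11 K91A (adjusted p = 0.0147). By pooled counts, 1040 against 10 and 1000 against 10, the scaled ratios were 114 (exact 95% interval 61.8 to 239, counting error only) and 108 (58.7 to 227). Ordered by log2 fold change, *Usp18* ranked 10 with Sox11 and 5 with Sox11 K91A among the 15747 genes tested. Without replicate 2 of Sox11 the Sox11 value was 7.02 with an adjusted p of 0.0649, and the Sox11 K91A value was 5.72 (adjusted p = 0.0606) without replicate 2 of control and 6.65 (adjusted p = 0.0611) without replicate 1 of Sox11 K91A. The Sox11 value was 8.05 without replicate 1 of control and 5.82 without replicate 2 of control, both called, and 4.27 on the log2(TPM + 1) scale, which understates changes from a low level. Both calls held without control 2 and Sox11 2, at 5.79 and 5.72. A noncoding gene on the opposite strand, *Gm44148*, covers 4.44% of its exon bases, and the use of strand in counting is not given in the sources used here.

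*Oasl2* rose in both groups as well. It encodes an oligoadenylate synthetase-like protein of the antiviral Oas family and lies at chr5:114896936-114912234, plus strand. Its libraries held 0.823 and 0.856 CPM in control, 7.57 and 5.43 CPM with Sox11, and 7.14 and 7.54 CPM with Sox11 K91A. The Sox11 and Sox11 K91A libraries lay close together and far above those of the control AAV. The log2 fold changes were 2.89 ± 0.39 (adjusted p = 0.0121 by limma-voom) and 3.10 ± 0.39 (adjusted p = 0.0147). The call was lost without replicate 2 of Sox11 (3.15, adjusted p = 0.0599), and for Sox11 K91A without replicate 2 of control (3.13, adjusted p = 0.0594) or replicate 1 of Sox11 K91A (3.15, adjusted p = 0.0924). Both calls held without control 2 and Sox11 2, at 3.18 and 3.13.

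*Ifit2*, a tetratricopeptide protein that binds RNA and limits viral translation, rose with Sox11. It lies at chr19:34550694-34576419, in the same cluster as *Ifit1* and *Ifit3*. It held 2.40 and 4.51 CPM in control, 8.77 and 13.2 CPM with Sox11, and 6.46 and 7.37 CPM with Sox11 K91A. The 3 groups did not overlap, with Sox11 K91A between the others. The log2 fold change was 1.67 ± 0.37 with Sox11 (adjusted p = 0.0266 by limma-voom) and 1.01 ± 0.39 with Sox11 K91A (adjusted p = 0.133). The Sox11 value was 1.27 (adjusted p = 0.0547) without replicate 1 of control and 1.37 (adjusted p = 0.148) without replicate 2 of Sox11. Without control 2 and Sox11 2, with single control and Sox11 libraries and the spread of the Sox11 K91A pair, *Ifit2* was called in both comparisons, at 1.87 and 1.52.

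*Ifi35*, whose protein binds Nmi and modulates innate signalling, fell in both groups from a low level. It had 39 and 53 counts in control, 13 and 10 with Sox11, and 6 and 8 with Sox11 K91A. In CPM this was 1.40 and 1.38, then 0.473 and 0.302, then 0.186 and 0.274. The log2 fold changes were -1.84 ± 0.50 (adjusted p = 0.0444 by limma-voom) and -2.54 ± 0.56 (adjusted p = 0.0378). The Sox11 call was lost without any one library, at values between -2.16 and -1.50, and the Sox11 K91A call without either control library or either Sox11 K91A library, with values of -2.80 to -2.26 over the 6 fits that leave out a library. Without control 2 and Sox11 2 the values were -1.52 with Sox11, not called, and -2.55 with Sox11 K91A, called. The antisense gene *Gm11626* covers 16.8% of its exon bases.

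The other 4 tested effectors were not called in the main limma-voom fit, and DESeq2 called *Trim25* lower with Sox11 (-2.08). With a block for control 2 and Sox11 2, limma-voom called *Trim25* lower in both comparisons with control. *Trim25*, the ligase that activates RIG-I, held 13.5 and 5.06 CPM in control, 3.82 and 0.633 CPM with Sox11, and 2.58 and 4.36 CPM with Sox11 K91A, and its replicates differed by far more than those of *Oasl2*. Its log2 fold change with Sox11 was -2.40 ± 0.86 (adjusted p = 0.0879 by limma-voom), and limma-voom called it in both comparisons when control 2 and Sox11 2 were left out, at -1.81 and -2.02, with a spread that does not include the difference between its own control libraries. *Bst2* (tetherin, which holds budding virus at the cell surface) ranged from 0.121 to 1.38 CPM and *Ifi27* from 0.960 to 2.65 CPM. *Eif2ak2* (PKR, the kinase that shuts down translation on double-stranded RNA) ranged from 1.15 to 4.04 CPM. In the *Parp9* group, whose proteins form a ligase and ADP-ribosyltransferase complex acting on interferon signalling, *Dtx3l* ranged from 0.272 to 1.11 CPM, *Parp9* from 0 to 0.422 CPM, and *Parp14* had at most 5 counts. *Parp9* and *Dtx3l* overlap on opposite strands over 458 exon bases, so their counts may mix.

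**Figure D3:**
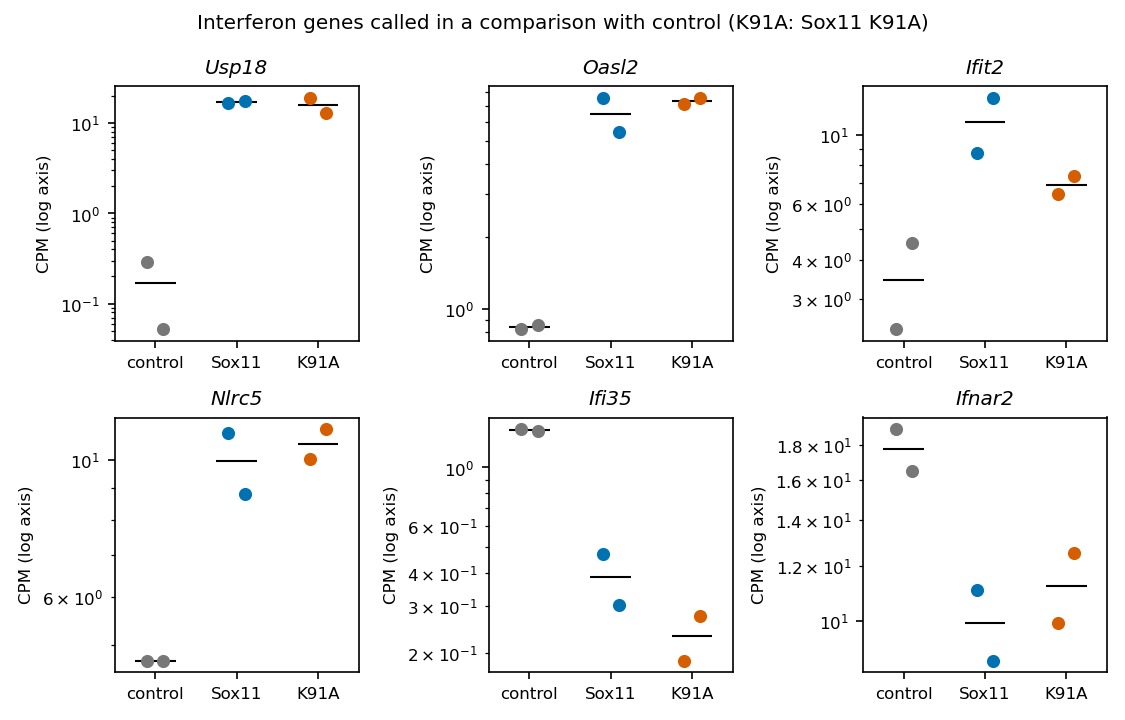
CPM (log axes that differ between panels) of the 6 genes called in a comparison with control, by group, with 1 point per library and a line at the group mean. *Usp18*, *Oasl2*, *Ifit2* and *Nlrc5* lie higher in both Sox11 groups than in control, and *Ifi35* and *Ifnar2* lie lower, with no overlap with control.

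Among the genes of antigen presentation, *Nlrc5*, known as an activator of class I genes, rose. The classical class I heavy chains and *B2m* were not called in the main limma-voom fit. *Nlrc5* (chr8:94434356-94527272, plus strand) held 4.72 and 4.72 CPM in control, 11.1 and 8.81 CPM with Sox11, and 10.0 and 11.2 CPM with Sox11 K91A. Every Sox11 and Sox11 K91A library was above both controls. The log2 fold changes were 1.05 ± 0.24 (adjusted p = 0.0292 by limma-voom) and 1.16 ± 0.24 (adjusted p = 0.0326). The Sox11 call was lost without any one library, at 0.88 to 1.23, with adjusted p-values from 0.0509 to 0.0943. For Sox11 K91A it was lost without replicate 2 of control (1.16) or without replicate 1 (1.25) or 2 (1.08) of Sox11 K91A. Without control 2 and Sox11 2 the values were 1.23 and 1.17, both called.

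*H2-D1*, a classical class I heavy chain, held 258 and 191 CPM in control, 183 and 112 CPM with Sox11, and 158 and 190 CPM with Sox11 K91A. Its log2 fold change with Sox11 was -0.64 ± 0.27 (adjusted p = 0.13 by limma-voom). *H2-K1*, the other class I heavy chain, held 25.7 and 12.9, then 14.7 and 1.93, then 10.1 and 15.2 CPM, with -1.81 ± 0.79 for Sox11 (adjusted p = 0.141). For *H2-K1* the Sox11 libraries differed from each other by more than the groups did. With a block for control 2 and Sox11 2, limma-voom called both genes lower with Sox11, and *H2-D1* also with Sox11 K91A. Without replicate 1 of Sox11 both genes were called, at -1.01 and -3.20. They were called with Sox11 K91A, though not with Sox11, in the fit without control 2 and Sox11 2, at -0.57 and -1.06. Other genes share 26.1% of the longest *H2-D1* transcript, so reads may be split among them.

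*B2m*, the light chain of class I, held 63.9 and 64.8 CPM in control, 84.0 and 50.6 CPM with Sox11, and 76.0 and 82.6 CPM with Sox11 K91A, and was not called (log2 fold changes 0.02 ± 0.23 and 0.30 ± 0.23). *Tap1*, a subunit of the peptide transporter, ranged from 4.50 to 12 CPM. The immunoproteasome subunits *Psmb8* and *Psmb9* ranged from 0.752 to 2.26 and from 0.272 to 1.03 CPM. *Tap1* and *Psmb9* lie head to head and share 212 exon bases on opposite strands. None of the 3 was called with all libraries, and *Tap1* was called at -1.26 with Sox11 when replicate 1 of Sox11 was left out.

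Set directly against each other, Sox11 K91A and Sox11 differed in 0 of the 31 tested genes by limma-voom, beside 0.0% of all genes tested. At an unadjusted p under 0.05 it held 0 of the 31 and 108 of all genes. DESeq2 called 2 genes, of which 0 were interferon genes, and edgeR 0. The log2 difference of *Usp18* was -0.11 with a 95% interval from -0.71 to 0.50, and that of *Oasl2* was 0.21 (-0.38 to 0.80). For *Nlrc5* it was 0.11 (-0.39 to 0.61). Both Sox11 K91A libraries held less *Ifit2* than either Sox11 library, with a log2 difference of -0.66 (-1.42 to 0.10) that did not pass. The intervals ran from -2.24 to 0.85 for *Ifi35* and from -0.37 to 0.74 for *Ifnar2*, so differences within these bounds between the viruses were not detectable here, which does not show that they act alike.

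Replicate 2 of Sox11 was the lowest of the 6 libraries for 14 of the 31 tested genes (45.2%), beside 29.0% of all genes tested. These included *Trim25*, *H2-K1*, *H2-D1*, *B2m*, *Tap1*, *Mavs* and *Bst2*. No interferon gene was lowest in replicate 1 of Sox11, where 6.27% of all genes were. The same Sox11 library had the lowest *Thy1* level, at 46.3 CPM against 259 in the other Sox11 library. Whether the low values share a source with the separation of this library was not tested. In these bulk cultures, fewer cells of a type and less RNA per cell cannot be told apart.

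Interferon ligands were not detected at a level that could be tested. Of 21 ligand genes, 19 had 0 counts in every library, and the 21 together held 5 counts. A list of 7 further genes at the interferon receptors, with kinases, STATs and both chains of the lambda interferon receptor, was tested, and 1 kinase rose and 1 receptor chain fell with Sox11, while the same kinase rose with Sox11 K91A. *Jak2*, the kinase of the interferon gamma receptor and of many cytokine receptors, held 36.6 and 40.8 CPM in control, 89.5 and 127 CPM with Sox11, and 102 and 75.6 CPM with Sox11 K91A. Its log2 fold changes were 1.46 ± 0.23 (adjusted p = 0.0132 by limma-voom) and 1.18 ± 0.23 (adjusted p = 0.0279). The Sox11 K91A call of *Jak2* was lost without either control library or either Sox11 K91A library. Its values ran from 0.97 to 1.39 over the 6 fits that leave out a library. *Il10rb*, a chain shared by the receptors of interleukin 10 and lambda interferon, fell with Sox11 by 1.74 on the log2 scale (adjusted p = 0.0315), from 5.04 and 7.55 CPM to 2.00 and 1.78 CPM. With Sox11 K91A *Il10rb* was not called, at -1.58 to -1.16 over the alternatives.

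Of 77 other ISGs, 36 were tested, and 3 rose and 5 fell with Sox11 (8.33% and 13.9%, beside 9.96% and 10.2% of all genes). With Sox11 K91A 2 rose and 2 fell (5.56% each, beside 5.81% and 4.81%). *Gbp9*, an interferon-inducible guanylate-binding GTPase, went from 0.107 and 0.0778 CPM in control to 4.77 and 12 CPM with Sox11 and 5.90 and 4.42 CPM with Sox11 K91A. Its log2 fold changes were 6.22 ± 1.21 (adjusted p = 0.0201 by limma-voom) and 5.61 ± 1.22 (adjusted p = 0.0359). The control levels of *Gbp9* lay near those of 3 counts (0.106 and 0.0809 CPM), so the size of its fold is uncertain. It passed the filter through its counts with Sox11 and Sox11 K91A, so a fall could not have been tested. *Ube2l6*, the conjugating enzyme that attaches Isg15 to its targets, went the other way, from 8.66 and 10.3 CPM to 2.11 and 0.453 CPM with Sox11 and 1.09 and 2.40 CPM with Sox11 K91A. Its log2 fold changes were -3.33 ± 0.64 (adjusted p = 0.0192) and -2.57 ± 0.55 (adjusted p = 0.035). *Ly6e*, a membrane-anchored protein, fell with Sox11 by 1.57 on the log2 scale (adjusted p = 0.0231), and *Parp11*, an ADP-ribosyltransferase, rose by 0.81 and 0.68 (adjusted p = 0.0162 and 0.0326). With Sox11 K91A *Ly6e* was not called, at -1.50 to -1.16 over the alternatives. With Sox11, the *Ube2l6* and *Gbp9* calls were lost without replicate 2 of control (-3.22 and 5.97) and without replicate 2 of Sox11 (-2.16 and 5.52), and that of *Gbp9* also without replicate 1 of control (6.44). Without replicate 1 of Sox11 both were called, at -4.37 and 6.82.

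Of 44 other genes of sensing and signalling, 29 were tested, with 3 higher and 1 lower with Sox11 (10.3% and 3.45%, beside 9.96% and 10.2% of all genes), and 1 higher and 1 lower with Sox11 K91A (3.45% each, beside 5.81% and 4.81%). *Traf6*, a ligase downstream of Toll-like receptors, rose by 1.54 ± 0.23 and 1.28 ± 0.24 on the log2 scale (adjusted p = 0.013 and 0.0263 by limma-voom). *Ticam1* (TRIF, the adaptor of Tlr3) fell by 1.96 and 1.91 on that scale (adjusted p = 0.0174 and 0.0263), from 4.44 and 5.79 CPM to 1.56 and 1.12 CPM with Sox11 and 1.30 and 1.41 CPM with Sox11 K91A. Both Sox11 K91A calls were lost without replicate 2 of control or either Sox11 K91A library. Over the 6 fits that leave out a library, *Traf6* ran from 1.00 to 1.52 and *Ticam1* from -2.08 to -1.70. The RNA helicases *Dhx9* and *Dhx36* rose with Sox11 by 1.21 and 0.63 (adjusted p = 0.0235 and 0.0265). With Sox11 K91A neither was called, and over the alternatives their values ran from 0.84 to 1.05 and from 0.46 to 0.54.

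Of 22 other genes of antigen presentation, 20 were tested. With Sox11, 1 rose and 5 fell (5% and 25%, beside 9.96% and 10.2% of all genes). With Sox11 K91A, 2 rose and 4 fell (10% and 20%, beside 5.81% and 4.81% of all genes). The summed level of the 22 was 1447 to 1683 CPM in control, 789 to 955 CPM with Sox11 and 840 to 967 CPM with Sox11 K91A. Of the genes that fell with Sox11, *Tapbp* and *Canx* had smaller changes than the 3 described next. *Calr*, a chaperone of the endoplasmic reticulum, held 425 and 458 CPM in control, 158 and 106 CPM with Sox11, and 125 and 168 CPM with Sox11 K91A, with log2 fold changes of -1.77 ± 0.24 (adjusted p = 0.0121 by limma-voom) and -1.60 ± 0.24 (adjusted p = 0.0191). *Tap2*, the partner of Tap1, fell by 2.04 and 2.02 on the log2 scale (adjusted p = 0.0277 and 0.0404), and *Psmb10*, the third immunoproteasome subunit, by 1.08 and 0.97 (adjusted p = 0.0162 and 0.0275). *H2-T23*, the nonclassical class I gene that encodes Qa-1, rose instead, from 0.322 and 0.415 CPM to 3.20 and 2.71 CPM with Sox11 and 3.63 and 2.40 CPM with Sox11 K91A (log2 fold changes 2.93 ± 0.52 and 2.95 ± 0.52, adjusted p = 0.0167 and 0.0243). Its Sox11 K91A call was lost without either control or either Sox11 K91A library, at 2.65 to 3.23 over the 6 fits that leave out a library. Those of *Tap2* (-2.30 to -1.75) and *Psmb10* (-1.05 to -0.89) were lost without replicate 2 of control or either Sox11 K91A library.

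In the NF-kB pathway, 12 of 20 genes were tested and 1 was called in each comparison with control (8.33%, beside 9.96% and 5.81% of all genes higher). This was *Tnfaip3* (A20), the deubiquitinase that damps NF-kB and is itself induced by it. It held 1.11 and 0.830 CPM in control, 7.32 and 8.51 CPM with Sox11, and 11.4 and 7.03 CPM with Sox11 K91A. The log2 fold changes were 3.05 ± 0.46 (adjusted p = 0.013 by limma-voom) and 3.24 ± 0.46 (adjusted p = 0.0185). No gene of these lists was called with Sox11 without replicate 2 of Sox11, or with Sox11 K91A without replicate 2 of control, since these fits called 0 genes in all.

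**Figure D4:**
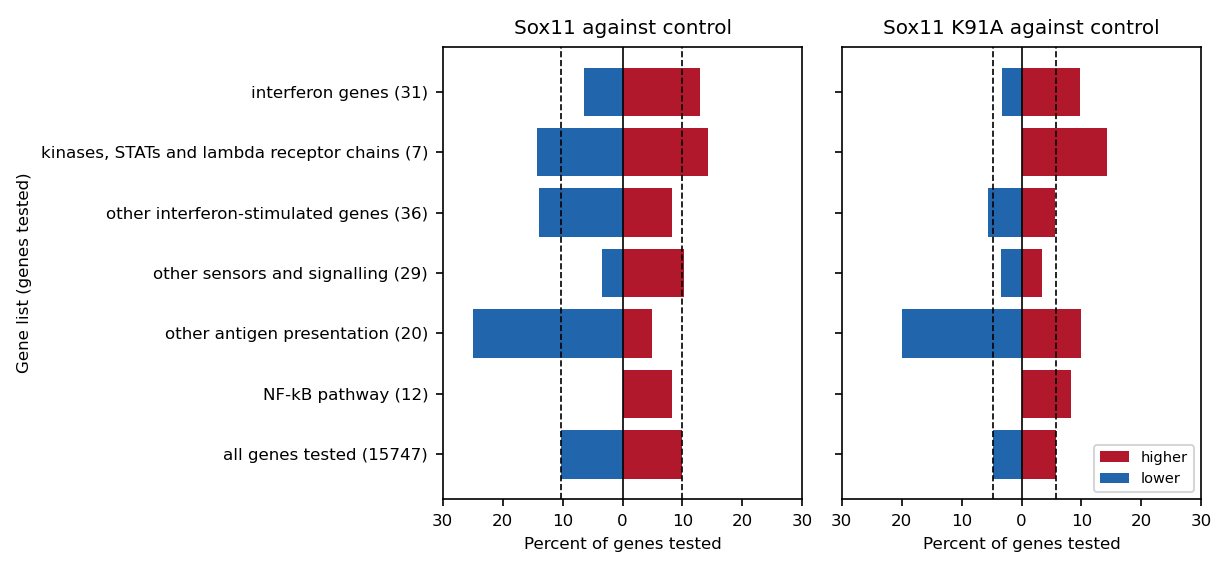
Percent of the tested genes of each list called higher (red, right) or lower (blue, left) against control, with the share of all genes tested as dashed lines and the number of genes tested in parentheses. The interferon genes lie near the dashed lines, and the lower calls of the other antigen presentation genes reach 25% with Sox11 and 20% with Sox11 K91A.

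Markers of other cell types ranged from absent to well expressed. Of 20 markers of microglia and macrophages, 5 had 0 counts in every library, the defining markers *Cx3cr1* and *P2ry12* had at most 0.0358 and 0.0621 CPM, and *Aif1* had at most 1.13 CPM. The list summed to 33.1 to 44.2 CPM in control, 31.6 to 33.0 CPM with Sox11 and 31.9 to 34.0 CPM with Sox11 K91A. Its highest gene held 92.6% of the summed mean. Of the list, 4 genes were tested and none was called. Of 12 markers of astrocytes and Muller glia, *Gfap* was at 0 in all 6 libraries and *Aqp4* reached at most 0.248 CPM, but the list summed to 502 to 664 CPM in control, 527 to 640 CPM with Sox11 and 619 to 655 CPM with Sox11 K91A, led by *Dkk3* (192 to 498 CPM) and *Glul* (97.2 to 310 CPM). Of its 10 tested genes, 1 was higher and 1 lower with Sox11 (10% each, beside 9.96% and 10.2% of all genes). With Sox11 K91A, 1 was higher (10%, beside 5.81% of all genes). The 8 amacrine markers summed to 387 to 638 CPM in control, 368 to 487 CPM with Sox11 and 451 to 487 CPM with Sox11 K91A. Their highest gene held 75.9% of the summed mean, so the sum mostly follows 1 gene. The median log2 fold change over the 8 was 0.12 with Sox11 and 1.15 with Sox11 K91A. Of the 8 markers, 1 was lower in each comparison with control (12.5%, beside 10.2% and 4.81% of all genes). The 8 oligodendrocyte markers summed to 40.3 to 52.3 CPM in control, 40.5 to 45.0 CPM with Sox11 and 45.4 to 46.1 CPM with Sox11 K91A. Their highest gene held 80.9% of the summed mean. Of 4 tested, 2 were higher with Sox11 (50%, beside 9.96% of all genes) and 0 were called with Sox11 K91A. The endothelial marker *Cdh5* reached at most 0.0519 CPM. The endothelial list summed to 15.6 to 16.7 CPM in control, 8.15 to 13.0 CPM with Sox11 and 13.9 to 14.8 CPM with Sox11 K91A. Of its 6 tested genes, 1 was lower with Sox11 (16.7%, beside 10.2% of all genes). With Sox11 K91A, 2 were higher and 1 lower (33.3% and 16.7%, beside 5.81% and 4.81% of all genes). The RGC markers *Rbpms* (194 to 242 CPM) and *Pou4f1* (321 to 428 CPM) were high in all libraries and not called, whereas *Thy1* fell with Sox11, from 725 and 689 CPM to 259 and 46.3 CPM (adjusted p = 0.0478 by limma-voom). The 14 RGC markers summed to 14940 to 15400 CPM in control, 6256 to 9526 CPM with Sox11 and 7837 to 10070 CPM with Sox11 K91A. Of the 14, 6 were lower and 0 higher with Sox11 (42.9% lower, beside 10.2% of all genes). With Sox11 K91A, 3 were lower and 0 higher (21.4% lower, beside 4.81% of all genes). The part of these changes in the values of the interferon genes was not tested.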

How the data were processed

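RNA-seq of 6 libraries was analysed. The authors aligned reads to mm10 with STAR and deposited RSEM expected counts, TPM and gene lengths (another deposited column) for each gene. Versions, annotation and strand are not given in the sources used here. Expected counts were rounded, filtered with filterByExpr and scaled by TMM (edgeR 4.0.16), and the 3 groups were fitted together without a covariate in limma-voom (limma 3.58.1, R 4.3.3). Calls needed a two-sided Benjamini-Hochberg adjusted p under 0.05 over 15747 genes and a fold above 1.2, the thresholds of the study's methods. CPM uses TMM-scaled library sizes. The 41 members and all other lists were chosen with earlier results of these data known. All members are reported by role. In each other list up to 4 called genes are named, those with the largest absolute log2 fold change and a mean of at least 1 CPM, and *Thy1*, *Tapbp*, *Canx*, *Dkk3*, *Glul*, *Aqp4* and the genes of the closing observations were named outside that rule, after their values were seen. Symbols and positions are from GENCODE M21 on GRCm38, and promoters from RefSeq. Of the genes listed, *Gbp5* and *Gbp6* were not matched. Similar transcripts were searched with BLAST 2.17.0, counting matches of at least 95% identity. Alternatives included DESeq2 1.42.0, limma on log2(TPM + 1) or log2(TPM + 0.1), other filters, blocks and leaving libraries out. The fit was tested on simulated data. Lanes per library are not given in the sources used here. Some items are not reported here.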

Additional observations from a re-analysis of the deposited data

How the results depend on the processing

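With 2 libraries a group, calls moved with the library left out. Genes called with Sox11 numbered 3171, and 979 with sample quality weights, 2107 on log2(TPM + 0.1), 1598 with only the 2 groups compared, 2094 leaving out control 2 and Sox11 2, and 0 to 3753 leaving out each library in turn. The interferon genes called numbered 6, then 2 with quality weights, 2 with only the 2 groups compared, and 0 to 7 leaving out a library. With Sox11 K91A, genes called numbered 1672, and 3144 by DESeq2, 936 on log2(TPM + 1), 896 on log2(TPM + 0.1) and 4108 leaving out control 2 and Sox11 2 (spread from the Sox11 K91A pair alone), with 0 to 2563 leaving out a library. The interferon genes called there numbered 4, then 10 leaving out both of those libraries, and 0 to 4 leaving out 1. In Sox11 K91A against Sox11, DESeq2 called 2 genes where limma-voom called 0, and the median log2 difference of the interferon genes (0.18) was -0.10 leaving out both libraries and -0.10 to 0.30 leaving out 1. The causes were not tested.

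The replicate numbers were not shown to pair the libraries, since deviations from the group means correlated at 0.26 (control, Sox11), -0.04 (control, Sox11 K91A) and -0.28 for the pair of Sox11 viruses. With the replicate block, 2679 genes were called with Sox11 and 1402 with Sox11 K91A, and *Ifnar2* and *Ifi35* lost their calls. A block for control 2 and Sox11 2 gave 4562 genes and 9 interferon genes with Sox11, and 2894 and 9 with Sox11 K91A. Its median for the interferon genes in the direct comparison was 0.001. The block with the numbers of Sox11 K91A exchanged was chosen after seeing the data. It gave 4076 genes and 9 interferon genes with Sox11, and 2753 and 7 with Sox11 K91A.

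Some uncalled genes changed sign. Leaving out control 2 and Sox11 2 gave, with Sox11, 0.029 for *Irf3*, 0.36 for *Ifi27*, -1.32 for *Parp9* and 0.20 for *Tap1*, with Sox11 K91A 0.008 for *Irf9*, 0.27 for *Dhx58* and -0.91 for *Tlr9*, and between the viruses -0.047 for *Oasl2* and -0.065 for *Nlrc5*. On log2(TPM + 1) and log2(TPM + 0.1) values, *Psmb9* was at 0.037 and 0.027 with Sox11, *Irf9* at 0.029 and 0.03 with Sox11 K91A, and *Nlrc5* at -0.14 and -0.17 between the viruses. *B2m* was at -0.011 with Sox11 by library size only, and the block for control 2 and Sox11 2 gave 0.11 for *Dhx58* and -0.82 for *Tlr9* with Sox11 K91A. Leaving out each library in turn with Sox11, *Irf1* ran from -0.24 to 0.79, *Ifi27* from -0.49 to 0.32, *Parp9* from -0.57 to 1.61, *Psmb8* from -0.16 to 1.17 and *B2m* from -0.36 to 0.39. With Sox11 K91A, *Irf1* ran from -0.33 to 0.71, *Irf9* from -0.15 to 0.053, *Dhx58* from -0.69 to 0.27, *Tlr9* from -0.91 to 2.49, *Eif2ak2* from -1.01 to 0.027, *Parp9* from -3.53 to 0.32 and *Psmb9* from -0.68 to 0.88. Between the viruses, *Usp18* ran from -0.40 to 0.17, *Oasl2* from -0.046 to 0.45, *Nlrc5* from -0.064 to 0.28 and *Sox11* from -0.72 to 0.051. *Oasl2* was called against control under 15 of 15 alternatives that keep each group's libraries or drop the named pair. *Usp18* was called under the 14 of these that tested it. The filter of at least 10 counts in every library removed *Usp18*, which had 8 and 2 counts in control. Elsewhere *Usp18* passed the filter through its counts with Sox11 and Sox11 K91A. Genes with few counts, among them the 10 not tested, cannot show moderate differences at this depth.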

Other observations

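Called genes of the same lists with a mean under 1 CPM were chosen after their values were seen and rest on few counts. *Irf5*, a factor that drives inflammatory cytokines, held 0.716 and 0.727 CPM in control, 0 and 0.0603 CPM with Sox11, and 0.0310 and 0.206 CPM with Sox11 K91A, and was called with Sox11 (adjusted p = 0.0351 by limma-voom). *Herc6*, the ligase that conjugates Isg15 in mice, held 2.00 and 1.84 CPM in control, 0.510 and 0.664 CPM with Sox11, and 0.217 and 0.309 CPM with Sox11 K91A, and fell in both comparisons (adjusted p = 0.0391 and 0.0265 by limma-voom). *Trim34a*, a tripartite motif protein, rose with Sox11 from 0.0716 and 0.0778 CPM to 0.946 and 0.664 CPM (adjusted p = 0.0356 by limma-voom). *H2-Ab1*, a class II chain, was called with Sox11 K91A, at 1.02 and 0.377 CPM against 0.0358 and 0 CPM in control (adjusted p = 0.0463 by limma-voom). With Sox11 it held 0.328 and 0.241 CPM, and the direct comparison of both viruses did not call it. *Trim34a* and *H2-Ab1* passed the filter only through libraries in which they were high, so a fall from control could not have been tested.

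Set by role in the Isg15 system, the called genes differed in direction. *Isg15* had between 3 and 12 counts, the conjugating enzyme *Ube2l6* and the ligase *Herc6* fell in both comparisons, and the protease *Usp18* rose in both. The activating enzyme *Uba7*, also among the listed ISGs, was not called in either comparison with control. This grouping was made after the values were seen and was not tested.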
